A study of Mus musculus with 18 samples.

Results

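A total of 42 autosomal genes were transcribed in WT mesenchymal progenitor cells (MPCs) and close to silent in both *Atrx* KO clones. They were chosen on measured values: in the polyA-selected libraries, a member had at least 0.5 CPM (counts scaled to equal library totals) in all 3 WT libraries and less than 0.1 CPM in all 6 KO libraries. Of the 24100 genes listed, 24045 could be placed on a chromosome, and 12671 autosomal genes reached the WT limit, so the members made up 0.331% of the autosomal genes that were on in WT. The same limits took 9 of 449 X-linked genes that were on in WT (2.00%), and with WT and KO exchanged they took 7 autosomal genes. *Ldb2* also met the limits, with 27.3 to 68.8 polyA CPM in WT and at most 0.0735 in the KO libraries, and was left out by the rule.

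The cells are C3H/10T1/2, an established mouse line labelled as mesenchymal progenitor cells. The WT line received the Cas9 vector with no guide, the sg5 line is the single KO clone G7 and the sg6 line is the single KO clone B10, made with separate guides against *Atrx*. Each line has 3 polyA-selected and 3 rRNA-depleted libraries, 18 in all, with no treatment named in the labels. Since every line is 1 cell population and both clones are set against the same WT libraries, the loss of *Atrx* and other differences between these lines cannot be told apart, and the *p*-values measure the spread between libraries, which may be technical. PolyA library totals ran from 27544833 to 80772108 for WT, from 161036799 to 235346363 for sg5 and from 58918732 to 71896907 for sg6, and rRNA-depleted totals from 20135336 to 33187136. The sg5 polyA totals are far above the average sequencing depth that the study's methods give, for a reason not given in the sources used here. The sg6 polyA totals and the highest WT polyA total are also above that depth, by less. What 1 count or 0.1 CPM stands for is therefore less certain, above all in sg5. *Atrx* itself fell in the rRNA-depleted libraries by 1.39 (SE 0.21) in sg5 and by 1.31 (SE 0.20) in sg6 on the log2 scale (edgeR quasi-likelihood adjusted *p* = 0.00138 and 0.00227). Of 13 mesenchymal markers, 12 were above 0.5 CPM in all 9 polyA libraries, while the leukocyte marker *Ptprc* and the epithelial marker *Epcam* stayed at or below 0.0726 and 0.0429 CPM. Summed over 6 genes, endothelial markers were 1.42 to 2.20 polyA CPM in WT and 8.10 to 13.8 in the clones, epithelial markers were 3.36 to 6.60 in WT and 0.348 to 1.71 in the clones, and haematopoietic markers were 4.83 to 6.32 in WT and 3.6 to 4.57 in the clones. The part of these marker differences in the results was not tested, and in bulk RNA fewer cells that express a gene and less RNA per cell cannot be told apart.

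ATRX is a chromatin remodeler of the SNF2 family that works with the chaperone DAXX to place histone H3.3 in repetitive and silent chromatin, and it is known mainly for keeping such regions quiet. C3H/10T1/2 cells can be turned towards fat, bone, cartilage or muscle, and genes of other lineages are held silent in such progenitors. The genes described here are set apart by RNA that was present in the WT line and nearly absent from both lines without ATRX.

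Of the 42 members, 34 are protein-coding, 7 are long noncoding RNAs and 1, *Rnls*, is listed by RefSeq as a transcribed pseudogene and by GENCODE as protein-coding. GENCODE lists *1700091H14Rik*, here among the noncoding RNAs, as a transcribed processed pseudogene. Grouped by what they encode, the members include developmental regulators (*Eya1*, *Meox2*, *Hoxb6*, *Hoxb5*, *Hoxb3*) and genes best known from neurons (*Syt1*, *Gap43*, *Sgip1*, *Sdk2*, *Slc6a15*, *Clvs1*). Enzymes, transporters and membrane proteins form the longest group (*Aldh1l1*, *Slc16a7*, *Rnls*, *Cpa6*, *Bace2*, *St8sia4*, *Galnt5*, *Hs3st1*, *Mboat2*, *Plch1*, *Cox7b2*, *Tram1l1*). Signalling and immune genes were *Traf1*, *P2ry1*, *Rassf9*, *Defb41*, *Nlrp4e*, *Wdfy4* and the *Sp140*-related *A530032D15Rik*, and *Tert* and *Spef2* encode the catalytic subunit of telomerase and a sperm flagellum protein. The noncoding RNAs were *Ptprtos*, *A330076H08Rik*, *Gm38403*, *1700025F24Rik*, *C130071C03Rik*, *1700091H14Rik* and *9930014A18Rik*, and the remaining 3 members, *4931408C20Rik*, *5031410I06Rik* and *Gm8765*, belong to little studied mouse gene families. These groups were formed for description after the members were known and were not tested. Members were found on 15 autosomes, with 6 each on chromosomes 1 and 10 (0.794% and 0.906% of the genes that were on there) and none on chromosomes 8, 9, 17 and 18.

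In the polyA libraries, which the rule used, the mean WT level of the members ran from 0.615 CPM for *Defb41* to 16.9 CPM for *Eya1*, with a median of 1.44, where the median autosomal gene that was on in WT had 30.6 CPM. CPM is not divided by transcript length, so these values describe reads and not the relative amounts of different RNAs. *Nlrp4e* had no polyA count in any of the 6 KO libraries, and 14 members had at most 3 counts in each of them. Summed over libraries and divided by library totals, the WT level was 13.7 to 1754 times that of sg5 (median 101) and 10.8 to 1226 times that of sg6 (median 103), with a clone at 0 counted as 3. The members nearest the WT limit were *5031410I06Rik*, *A530032D15Rik* and *Defb41*, whose lowest WT libraries had 0.505, 0.508 and 0.532 CPM, while *Gm8267*, *Arhgef5* and *Abca6* just missed it at 0.481, 0.481 and 0.472. Nearest the KO limit were *Aldh1l1*, *Gm38403* and *Clvs1*, whose highest KO libraries had 0.0931, 0.0927 and 0.0919 CPM, while *Anks1b*, *Hoxc6* and *Nova1* just missed it at 0.108, 0.108 and 0.110. WT replicate 1 had the lowest value of the WT libraries in 29 members (69.0%, against 44.5% of all autosomal genes on in WT) and replicate 3 the highest in 25 (59.5%, against 43.5%). The ratio of the highest to the lowest WT library had a median of 1.56 over the members, and 11 members had a ratio of at least 2. The other genes on in WT lie at higher counts, so the spread was not compared with theirs.

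**Figure D1:**
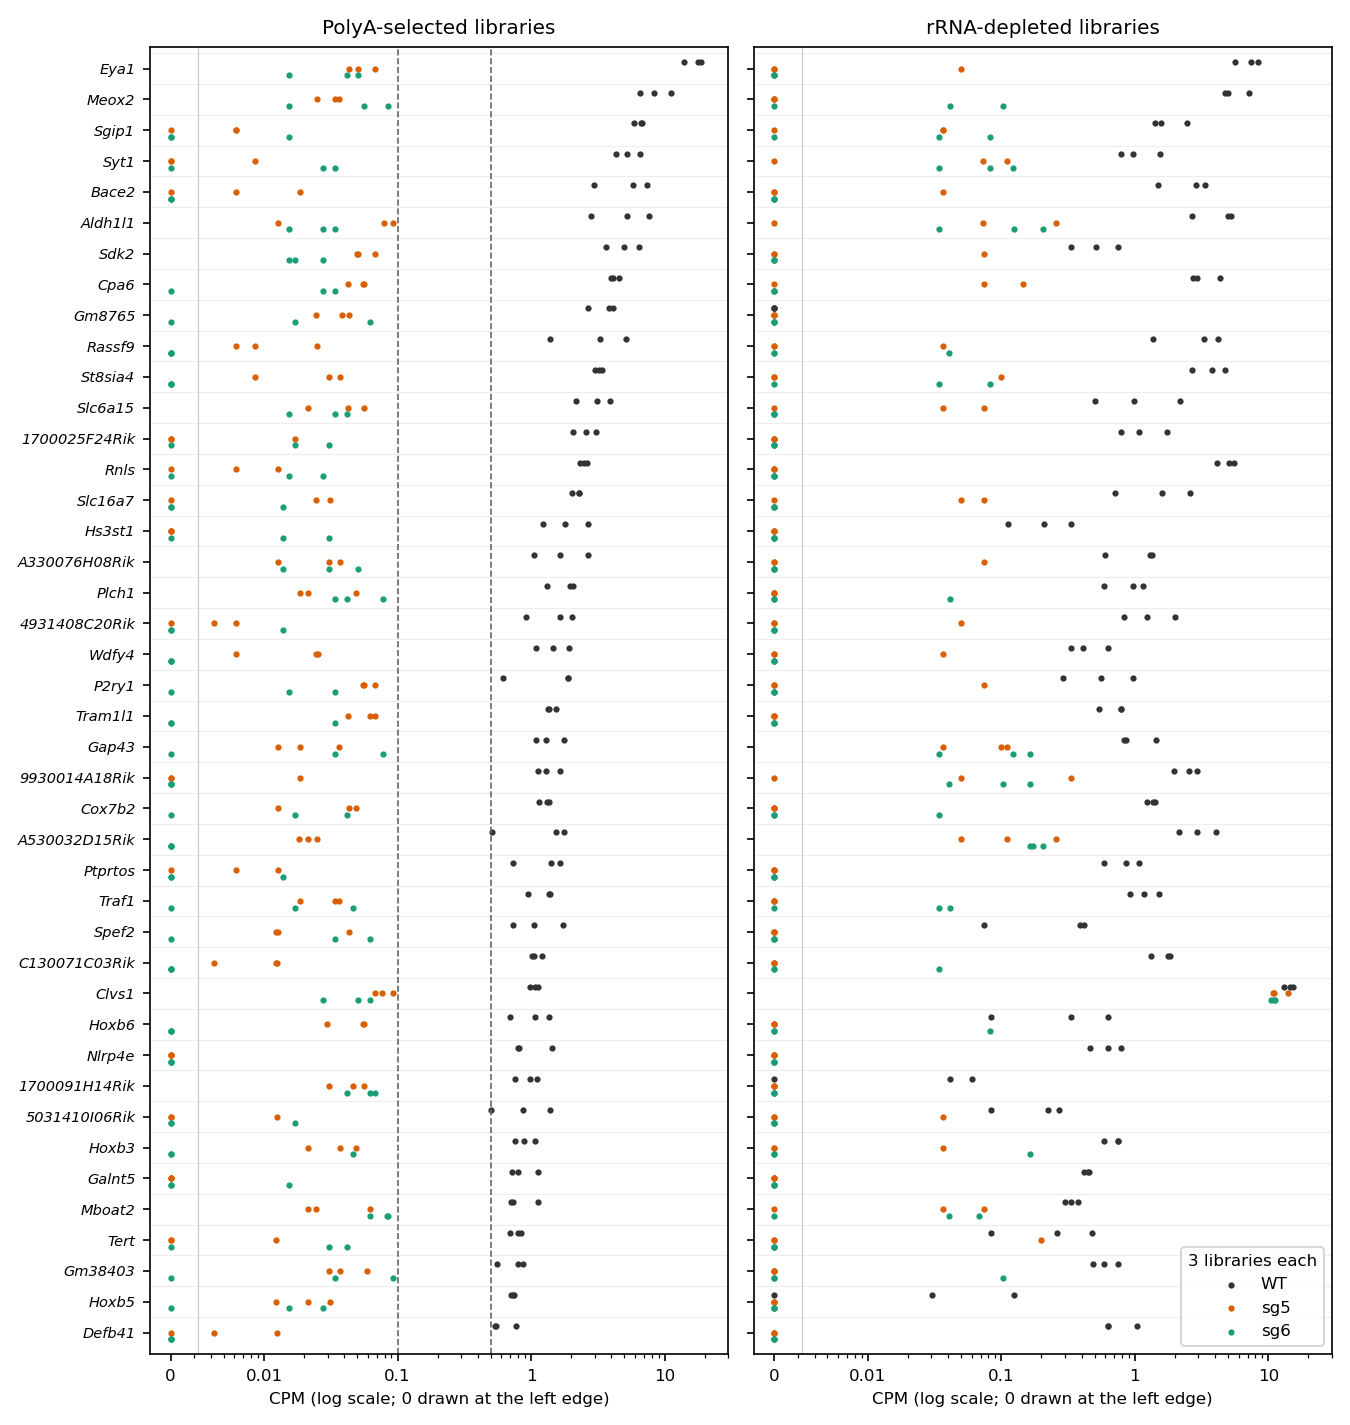
CPM of each of the 42 members in every library on a log axis, with polyA-selected libraries on the left and rRNA-depleted libraries on the right (points are single libraries, coloured by line; 0 is drawn at the left edge; dashed lines mark 0.1 and 0.5 CPM). The gap between WT and KO points on the left was set by the rule, and on the right the KO points lie below all WT points for 37 members, with *Clvs1* between 10.5 and 15.2 CPM in every line.

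The rRNA-depleted libraries were not used by the rule and gave a separate measure of the same lines. All KO libraries lay below all WT libraries in 37 of the 42 members (88.1%), against 13.8% of all 13303 genes tested. After the filter on low counts 30 members could be tested, of which 29 separated in this way, and 12 had too few reads to be tested. With a log2 fold change beyond 1 and an adjusted *p* below 0.05 (edgeR quasi-likelihood test), 29 of the 30 fell in sg5, where 4.31% of all genes tested fell, and 26 fell in sg6, where 3.59% did. All 26 fell in both clones, against 2.62% of all genes tested, and no member rose. The median fitted log2 fold change of the 30 tested members was −6.85 in sg5 and −6.52 in sg6, beside 0.08 and 0.04 over all genes tested, and since many of these genes had 0 counts in a clone the size of such a median depends on the prior count of the fit. In read counts, 12 members had no rRNA-depleted count in any KO library, and 34 had at most 3 counts in each. The 12 include *Gm8765*, with 0 reads in WT as well. They also include *1700091H14Rik*, with 1, 0 and 2 reads in WT, and *Hoxb5*, with 3, 0 and 1. For these genes the absence of KO reads says little, and the share of all genes with so few KO reads was not taken. A member passes the filter through its WT libraries, so the 30 tested members are the better expressed ones and do not stand for all 42. Over the 42 members, the WT level in polyA and rRNA-depleted RNA was related with Pearson's *r* = 0.497 and Spearman's rho = 0.551 on a log2 scale with 0.1 CPM added, as a description across genes that share libraries. Without WT replicate 3, which was the highest rRNA-depleted WT library in 22 members (52.4%, against 29.1% of autosomal genes on in WT), 18 members fell in sg5 and 18 in both clones.

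**Figure D2:**
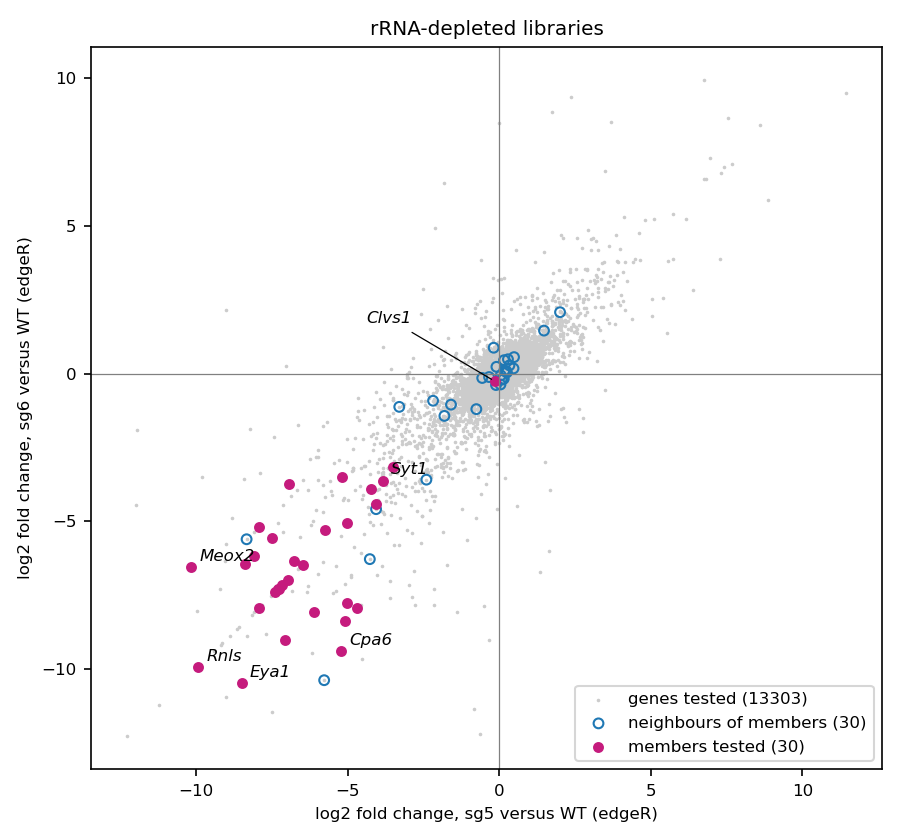
Fitted log2 fold change against WT in sg5 (horizontal) and sg6 (vertical) for all 13303 genes tested in the rRNA-depleted libraries (grey), the 30 tested neighbours of members (open circles) and the 30 tested members (filled). All tested members lie in the lower left except *Clvs1*, at −0.14 and −0.27, and most neighbours lie near 0.

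Most members with a known window had a low CpG content before the start site, which the rule did not use. RefSeq start sites (GRCm38.p6) were matched for 29 members, and the 250 bases upstream of the first listed start had a median ratio of observed to expected CpG of 0.361, against 0.731 for 10040 other autosomal genes that were on in WT and 0.551 for all 17224 autosomal genes with such a window. The ratio was above 0.6 in 7 of the 29 windows (24.1%), compared with 67.1% of the other genes that were on and 46.3% of all. Median GC content was 52.8%, against 60% for the other genes that were on, and the groups were not matched for their WT level. In *Defb41*, *Ptprtos*, *4931408C20Rik*, *Nlrp4e* and *A330076H08Rik* the window held no CpG, while *Sdk2*, *Mboat2* and *St8sia4* had ratios of 1.0, 0.901 and 0.835. In 13 of the 29 members the first listed start lay inside the RefSeq span of the gene, by 5 to 18833 bases. The windows are shown for *Sdk2*, the richest in CpG, for *Meox2* and *Syt1* with intermediate ratios of 0.503 and 0.404, and for *A330076H08Rik* with none, written 5′ to 3′ with each CG in capitals.

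Sdk2 (chr11:114067030-114067279, minus strand): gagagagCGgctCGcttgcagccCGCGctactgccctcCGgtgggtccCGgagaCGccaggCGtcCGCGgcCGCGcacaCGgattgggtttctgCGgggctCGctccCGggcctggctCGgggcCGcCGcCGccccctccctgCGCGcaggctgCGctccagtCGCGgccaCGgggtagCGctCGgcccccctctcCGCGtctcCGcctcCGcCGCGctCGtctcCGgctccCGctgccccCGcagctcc

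Meox2 (chr12:37108290-37108539, plus strand): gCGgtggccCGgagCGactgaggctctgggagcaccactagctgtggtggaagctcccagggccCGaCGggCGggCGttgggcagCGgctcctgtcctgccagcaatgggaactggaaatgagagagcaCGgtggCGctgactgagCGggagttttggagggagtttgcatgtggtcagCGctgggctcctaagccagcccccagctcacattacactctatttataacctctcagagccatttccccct

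Syt1 (chr10:109010976-109011225, minus strand): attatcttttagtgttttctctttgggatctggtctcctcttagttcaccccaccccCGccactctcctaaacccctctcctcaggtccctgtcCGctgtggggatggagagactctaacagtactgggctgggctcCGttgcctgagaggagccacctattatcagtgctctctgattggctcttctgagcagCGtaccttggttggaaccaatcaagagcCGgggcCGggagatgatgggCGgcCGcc

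A330076H08Rik (chr7:61982356-61982605, minus strand): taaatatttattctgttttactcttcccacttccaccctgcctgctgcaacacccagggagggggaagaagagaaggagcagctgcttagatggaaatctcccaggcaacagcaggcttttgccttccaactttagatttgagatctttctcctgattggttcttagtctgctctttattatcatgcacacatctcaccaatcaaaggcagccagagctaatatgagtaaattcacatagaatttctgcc

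The CG pairs of *Sdk2* ran through the whole window, those of *Meox2* lay mainly in its upstream part, and *A330076H08Rik* had none. Of 4 sequence motifs searched on both strands, none of which contains another, TATAAA was found in 2 of 29 member windows (6.90%, against 6.21% of the other genes that were on and 12% of all), CCAAT in 14 (48.3%, against 36.8% and 35.8%), GGGCGG in 13 (44.8%, against 58.6% and 43.4%) and CACGTG in 0 (against 8.23% and 6.85%). A match describes the letters of the window and no more. Windows were not matched for *Cpa6*, *Eya1*, *Clvs1*, *Rassf9*, *Slc6a15*, *Slc16a7*, *Hoxb6*, *Hoxb5*, *Hoxb3*, *9930014A18Rik*, *Gap43*, *Bace2* and *Rnls*.

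**Figure D3:**
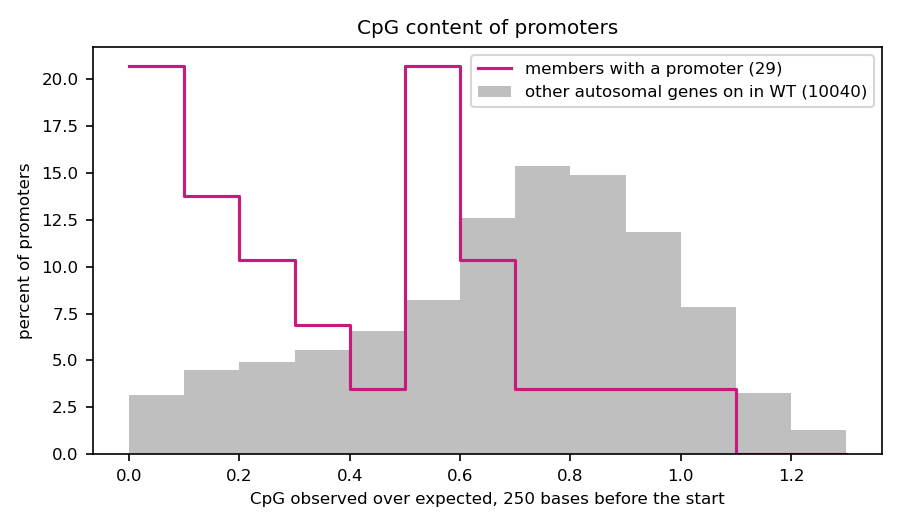
Percent of windows (vertical) by ratio of observed to expected CpG in the 250 bases before the start (horizontal, bins of 0.1) for 29 members (line) and 10040 other autosomal genes on in WT (grey bars). Member windows lie mostly below 0.6, and the other genes lie mostly above it.

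Among the developmental regulators, *Eya1* encodes a transcriptional coactivator with phosphatase activity that works with proteins of the sine oculis homeobox family. *Eya1* (chromosome 1, 14168953 to 14311035) had polyA CPM of 13.9, 18.9 and 17.8 in WT, 0.0435, 0.0510 and 0.0674 in sg5 and 0.0417, 0.0154 and 0.0509 in sg6. Its rRNA-depleted read counts were 135, 199 and 276 in WT, 0, 1 and 0 in sg5 and 0 in each sg6 library. No KO library held more than 1 of these reads, which made *Eya1* lower than WT by 541-fold in sg5 (interval 96.8 to 21421) and by at least 188-fold in sg6, with edgeR quasi-likelihood adjusted *p* = 1.13e-05 and 7.79e-06. Such intervals are exact 95% counting intervals of the pooled counts, a clone at 0 was set to 3 counts over its libraries, and both cover counting error only. *Meox2* (chromosome 12, 37108540 to 37179534), a mesenchyme homeobox factor of somite and limb muscle development, had polyA CPM of 11.1, 8.26 and 6.58 in WT, 0.0248, 0.0340 and 0.0368 in sg5 and 0.0556, 0.0154 and 0.0849 in sg6. *Meox2* rRNA-depleted counts were 173, 134 and 156 in WT, 0 in each sg5 library and 0, 3 and 1 in sg6. All WT libraries stood far above all KO libraries, and *Meox2* was lower than WT by at least 137-fold in sg5 and by 107-fold in sg6 (interval 41.6 to 395), with edgeR quasi-likelihood adjusted *p* = 3.28e-05 and 6.38e-05.

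The 3 *Hoxb* members, which encode homeodomain factors that set position along the body axis, lie side by side on chromosome 11, with 1.94 kb between *Hoxb6* and *Hoxb5* and 0.98 kb between *Hoxb5* and *Hoxb3*. *Hoxb6* (chromosome 11, 96292814 to 96301569) had polyA CPM of 0.690, 1.08 and 1.37 in WT, 0.0559, 0.0297 and 0.0551 in sg5 and 0 in each sg6 library. *Hoxb5* (chromosome 11, 96303512 to 96306121) had 0.726, 0.706 and 0.745 in WT, 0.0310, 0.0212 and 0.0123 in sg5 and 0.0278, 0.0154 and 0 in sg6. *Hoxb3* (chromosome 11, 96307101 to 96347930) had 0.762, 1.08 and 0.889 in WT, 0.0373, 0.0212 and 0.0490 in sg5 and 0, 0.0463 and 0 in sg6. The other *Hoxb* genes did not meet the limits. *Hoxb4*, which RefSeq places within the span of *Hoxb3*, had 0.363, 0.371 and 0.360 in WT, 0.242, 0.183 and 0.221 in sg5 and 0.111, 0.185 and 0.153 in sg6, so its KO libraries were lower than WT without being silent. *Hoxb1* had 0.835, 0.829 and 1.68 in WT, 2.79, 1.42 and 4.02 in sg5 and 2.06, 0.618 and 0.95 in sg6 in polyA RNA, with overlapping lines, and no rRNA-depleted read in any library. *Hoxb13*, *Hoxb9*, *Hoxb8*, *Hoxb7* and *Hoxb2* had at most 0.111 polyA CPM in any library. The antisense gene *Hoxb5os*, which spans *Hoxb6* and *Hoxb5* on the opposite strand and overlaps exons of *Hoxb5*, had 0.182, 0.0990 and 0.144 in WT, 0, 0.0127 and 0 in sg5 and 0, 0.0154 and 0 in sg6, and without a stated strand setting the reads of this pair cannot be told apart. For *Hoxb3*, rRNA-depleted counts were 14, 20 and 25 in WT, 0, 0 and 1 in sg5 and 4, 0 and 0 in sg6. *Hoxb3* fell in sg5 but not by the threshold in sg6 (log2 fold changes −5.17 and −3.50, SE 1.20 and 0.99, edgeR quasi-likelihood adjusted *p* = 0.0274 and 0.0916), and the difference between the clones was −1.67 (SE 1.52, adjusted *p* = 0.844). For *Hoxb6* they were 2, 17 and 11 in WT, 0 in each sg5 library and 0, 0 and 2 in sg6, and *Hoxb5* had 3, 0 and 1 in WT and 0 in each of the 6 KO libraries, too few for a test.

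**Figure D4:**
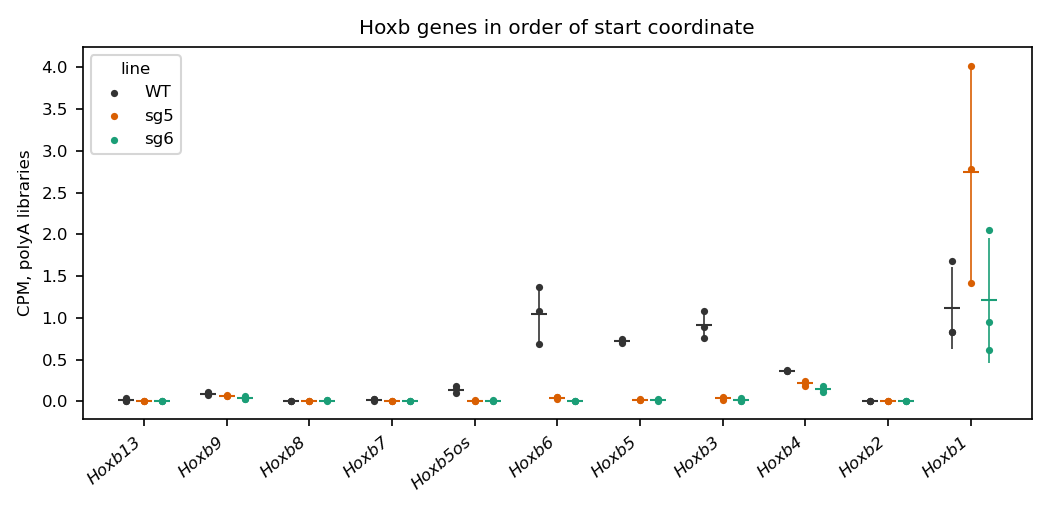
PolyA CPM (vertical, linear) of the *Hoxb* genes in order of start coordinate, by line; points are single libraries, horizontal bars the mean and vertical bars the SD of 3 libraries. *Hoxb6*, *Hoxb5* and *Hoxb3* have WT values of 0.690 to 1.37 and KO values below 0.1, *Hoxb4* is lower in the clones without reaching 0, and *Hoxb1* overlaps between lines.

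Genes best known from neurons follow. *Syt1* encodes the calcium sensor of synaptic vesicle release. *Syt1* (chromosome 10, 108497650 to 109010980) had polyA CPM of 4.32, 6.56 and 5.24 in WT, 0, 0.00850 and 0 in sg5 and 0.0278, 0 and 0.0339 in sg6, and its rRNA-depleted counts were 19, 26 and 51 in WT, 3, 0 and 2 in sg5 and 3, 1 and 2 in sg6. It kept a few rRNA-depleted reads in most KO libraries and was lower than WT by 17.0-fold in sg5 (interval 7.06 to 53.7) and by 14.8-fold in sg6 (interval 6.56 to 41.4), with log2 fold changes of −3.85 (SE 0.64) in sg5 and −3.62 (SE 0.62) in sg6, with edgeR quasi-likelihood adjusted *p* = 0.00305 and 0.00435. *Sgip1* encodes an adaptor of clathrin-mediated endocytosis. *Sgip1* (chromosome 4, 102741302 to 102977426) had polyA CPM of 6.64, 5.88 and 6.78 in WT, 0.00621, 0 and 0.00613 in sg5 and 0, 0.0154 and 0 in sg6, and rRNA-depleted counts of 38, 38 and 82 in WT, 1, 0 and 1 in sg5 and 2, 1 and 0 in sg6. All KO libraries were near 0, and *Sgip1* was lower than WT by 70.1-fold in sg5 (interval 19.1 to 584) and by 48.8-fold in sg6 (interval 16.4 to 239), with edgeR quasi-likelihood adjusted *p* = 1.71e-04 and 1.97e-04. *Slc6a15*, a transporter of neutral amino acids (chromosome 10, 103367808 to 103419379), had polyA CPM of 3.88, 3.11 and 2.19 in WT, 0.0559, 0.0212 and 0.0429 in sg5 and 0.0417, 0.0154 and 0.0339 in sg6 and rRNA-depleted counts of 12, 59 and 33 in WT, 2, 0 and 1 in sg5 and 0 in each sg6 library. Its WT libraries were spread in rRNA-depleted RNA, with replicate 2 the highest, and it was lower than WT by 30.8-fold in sg5 (interval 10.2 to 152) and by at least 32.1-fold in sg6, with edgeR quasi-likelihood adjusted *p* = 0.00753 and 0.00275.

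*Gap43*, a protein of growing axons, had rRNA-depleted counts of 20, 23 and 48 in WT, 3, 2 and 1 in sg5 and 3, 1 and 4 in sg6. Every library kept at least 1 read, and *Gap43* fell with log2 fold changes of −3.50 (SE 0.59) in sg5 and −3.15 (SE 0.56) in sg6, with edgeR quasi-likelihood adjusted *p* = 0.00349 and 0.00602. *Sdk2* encodes a sidekick adhesion molecule that matches synaptic partners in the retina. *Sdk2* (chromosome 11, 113776374 to 114067029) had polyA CPM of 3.63, 4.95 and 6.39 in WT, 0.0497, 0.0510 and 0.0674 in sg5 and 0.0278, 0.0154 and 0.0170 in sg6. Its rRNA-depleted counts of 8, 20 and 17 in WT, 2, 0 and 0 in sg5 and 0 in each sg6 library were too few to pass the filter, and the pooled level was lower than WT by 20-fold in sg5 (interval 5.22 to 170.0) and by at least 13.9-fold in sg6. *Clvs1*, which encodes a lipid-binding protein of clathrin-coated vesicles, was the exception among the tested members. *Clvs1* (chromosome 4, 9144745 to 9451691) had polyA CPM of 0.980, 1.08 and 1.13 in WT, 0.0683, 0.0765 and 0.0919 in sg5 and 0.0278, 0.0618 and 0.0509 in sg6, but rRNA-depleted counts of 316, 409 and 479 in WT, 381, 223 and 294 in sg5 and 276, 307 and 268 in sg6. The lines overlapped in rRNA-depleted RNA, with log2 fold changes of −0.14 (SE 0.17) in sg5 and −0.27 (SE 0.17) in sg6 (edgeR quasi-likelihood adjusted *p* = 0.751 and 0.582). *Clvs1* exons overlap those of *Asph* and *Gm26548* on the opposite strand, and *Asph*, an aspartate hydroxylase, had 159 ± 5.45 CPM in the WT line, 156 ± 21.9 in sg5 and 128 ± 9.21 in sg6 in rRNA-depleted RNA (mean ± SD, n = 3 libraries). The strand setting of the counting is not given in the sources used here, so the reads of *Clvs1* and *Asph* cannot be told apart in these counts.

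Enzymes and transporters formed the longest group. *Aldh1l1*, which oxidises formyltetrahydrofolate in folate metabolism (chromosome 6, 90550768 to 90599171), had polyA CPM of 2.83, 5.21 and 7.67 in WT, 0.0931, 0.0127 and 0.0796 in sg5 and 0.0278, 0.0154 and 0.0339 in sg6. Its rRNA-depleted counts were 127, 72 and 165 in WT, 7, 0 and 2 in sg5 and 5, 1 and 3 in sg6. *Aldh1l1* kept a few reads in most KO libraries and fell with log2 fold changes of −5.03 (SE 0.61) in sg5 and −5.04 (SE 0.61) in sg6, with edgeR quasi-likelihood adjusted *p* = 3.01e-04 and 3.07e-04. *Bace2*, an aspartyl protease related to β-secretase (chromosome 16, 97356728 to 97442936), had polyA CPM of 2.98, 5.77 and 7.33 in WT, 0.0186, 0 and 0.00613 in sg5 and 0 in each sg6 library and rRNA-depleted counts of 81, 40 and 95 in WT, 1, 0 and 0 in sg5 and 0 in each sg6 library. *Bace2* was lower than WT by 192-fold in sg5 (interval 34.0 to 7608) and by at least 66.6-fold in sg6, with edgeR quasi-likelihood adjusted *p* = 2.17e-04 and 1.41e-04. *Cpa6*, an extracellular carboxypeptidase (chromosome 1, 10295791 to 10720053), had polyA CPM of 4.57, 4.11 and 3.97 in WT, 0.0559, 0.0425 and 0.0551 in sg5 and 0.0278, 0 and 0.0339 in sg6 and rRNA-depleted counts of 105, 73 and 97 in WT, 2, 0 and 4 in sg5 and 0 in each sg6 library. In rRNA-depleted RNA the sg5 libraries held 6 *Cpa6* reads in all and sg6 none. *Cpa6* was lower than WT by 40.7-fold in sg5 (interval 18.5 to 112) and by at least 84.9-fold in sg6, with edgeR quasi-likelihood adjusted *p* = 3.01e-04 and 1.04e-04. *Rnls*, which encodes the flavoprotein renalase (chromosome 19, 33137740 to 33392295), had polyA CPM of 2.32, 2.61 and 2.48 in WT, 0, 0.0127 and 0.00613 in sg5 and 0.0278, 0.0154 and 0 in sg6, and its rRNA-depleted counts were 121, 110 and 183 in WT and 0 in each of the 6 KO libraries. *Rnls* thus had the most WT reads among the members with no KO read in this file, and it was lower than WT by at least 122-fold in sg5 and by at least 128-fold in sg6, with edgeR quasi-likelihood adjusted *p* = 4.28e-05 and 4.11e-05.

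*St8sia4*, a polysialyltransferase that modifies the adhesion molecule NCAM (chromosome 1, 95587682 to 95667717), had polyA CPM of 3.23, 3.01 and 3.41 in WT, 0.0373, 0.00850 and 0.0306 in sg5 and 0 in each sg6 library and rRNA-depleted counts of 113, 72 and 126 in WT, 0, 2 and 0 in sg5 and 2, 1 and 0 in sg6. *St8sia4* was lower than WT by 138-fold in sg5 (interval 37.9 to 1145) and by 96.0-fold in sg6 (interval 32.5 to 468), with edgeR quasi-likelihood adjusted *p* = 9.15e-05 and 1.07e-04. *Slc16a7*, a monocarboxylate transporter (chromosome 10, 125219270 to 125389586), had polyA CPM of 2.03, 2.28 and 2.28 in WT, 0.0310, 0 and 0.0245 in sg5 and 0.0139, 0 and 0 in sg6 and rRNA-depleted counts of 62, 19 and 53 in WT, 2, 1 and 0 in sg5 and 0 in each sg6 library. Its rRNA-depleted KO reads all came from sg5. *Slc16a7* was lower than WT by 39.6-fold in sg5 (interval 13.3 to 195) and by at least 41.3-fold in sg6, with edgeR quasi-likelihood adjusted *p* = 0.00335 and 0.00131. *Cox7b2*, a testis-type subunit of cytochrome *c* oxidase (chromosome 5, 71442823 to 71548205), had polyA CPM of 1.31, 1.36 and 1.15 in WT, 0.0435, 0.0127 and 0.0490 in sg5 and 0.0417, 0 and 0.0170 in sg6 and rRNA-depleted counts of 33, 33 and 47 in WT, 0 in each sg5 library and 0, 1 and 0 in sg6. A single rRNA-depleted read remained in the clones. *Cox7b2* was lower than WT by at least 33.4-fold in sg5 and by 105-fold in sg6 (interval 18.4 to 4168), with edgeR quasi-likelihood adjusted *p* = 3.43e-04 and 5.45e-04. *Plch1*, a phospholipase C (chromosome 3, 63696199 to 63899503), had polyA CPM of 1.31, 2.04 and 1.97 in WT, 0.0186, 0.0212 and 0.0490 in sg5 and 0.0417, 0.0772 and 0.0339 in sg6 and rRNA-depleted counts of 14, 26 and 38 in WT, 0 in each sg5 library and 0, 0 and 1 in sg6. *Plch1* was lower than WT by at least 23.1-fold in sg5 and by 72.2-fold in sg6 (interval 12.6 to 2888), with edgeR quasi-likelihood adjusted *p* = 0.00299 and 0.00580. *Tram1l1*, a relative of a translocon protein of the endoplasmic reticulum (chromosome 3, 124321037 to 124323260), had polyA CPM of 1.34, 1.36 and 1.54 in WT, 0.0621, 0.0425 and 0.0674 in sg5 and 0, 0 and 0.0339 in sg6 and rRNA-depleted counts of 19, 21 and 18 in WT and 0 in each of the 6 KO libraries. No rRNA-depleted KO read remained. *Tram1l1* was lower than WT by at least 17.2-fold in sg5 and by at least 17.9-fold in sg6, with edgeR quasi-likelihood adjusted *p* = 0.0152 and 0.0162. *Galnt5*, which starts mucin-type glycosylation, had rRNA-depleted counts of 10, 12 and 15 in WT and 0 in each of the 6 KO libraries. With fewer WT reads its edgeR quasi-likelihood adjusted *p* was 0.0486 in sg5 and 0.0558 in sg6, although both clones were at 0.

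Signalling and immune genes are described next. *Traf1*, an adaptor of TNF receptor signalling (chromosome 2, 34941750 to 34961812), had polyA CPM of 0.944, 1.36 and 1.39 in WT, 0.0186, 0.0340 and 0.0368 in sg5 and 0, 0.0463 and 0.0170 in sg6 and rRNA-depleted counts of 22, 41 and 39 in WT, 0 in each sg5 library and 0, 1 and 1 in sg6. *Traf1* was lower than WT by at least 30.2-fold in sg5 and by 47.2-fold in sg6 (interval 12.7 to 395), with edgeR quasi-likelihood adjusted *p* = 5.28e-04 and 0.00124. *Rassf9*, a member of the Ras association domain family (chromosome 10, 102512222 to 102549737), had polyA CPM of 1.38, 3.27 and 5.09 in WT, 0.0248, 0.00850 and 0.00613 in sg5 and 0 in each sg6 library and rRNA-depleted counts of 79, 37 and 140 in WT, 1, 0 and 0 in sg5 and 1, 0 and 0 in sg6. Each clone kept 1 rRNA-depleted *Rassf9* read. *Rassf9* was lower than WT by 227-fold in sg5 (interval 40.4 to 9010.0) and by 237-fold in sg6 (interval 42.2 to 9396), with edgeR quasi-likelihood adjusted *p* = 1.12e-04 and 1.11e-04. *Defb41*, a beta-defensin of the male reproductive tract (chromosome 1, 18250978 to 18265138), had polyA CPM of 0.545, 0.532 and 0.769 in WT, 0.0124, 0.00425 and 0 in sg5 and 0 in each sg6 library and rRNA-depleted counts of 25, 17 and 21 in WT and 0 in each of the 6 KO libraries. *Defb41* was lower than WT by at least 18.6-fold in sg5 and by at least 19.4-fold in sg6, with edgeR quasi-likelihood adjusted *p* = 0.0121 and 0.0132. *Nlrp4e*, an oocyte gene of the NLR family (chromosome 7, 23301192 to 23362277), had polyA CPM of 0.799, 1.42 and 0.817 in WT and 0 in each of the 6 KO libraries and rRNA-depleted counts of 11, 21 and 21 in WT and 0 in each of the 6 KO libraries. It was lower than WT by at least 15.7-fold in sg5 and by at least 16.4-fold in sg6, with edgeR quasi-likelihood adjusted *p* = 0.0207 and 0.0226, a call that held in both clones in 1 of 9 fits that each left out a library. *A530032D15Rik* kept a low level, with rRNA-depleted counts of 70, 58 and 134 in WT, 7, 1 and 3 in sg5 and 4, 5 and 5 in sg6, and fell with log2 fold changes of −4.22 (SE 0.45) in sg5 and −3.92 (SE 0.44) in sg6, with edgeR quasi-likelihood adjusted *p* = 1.06e-04 and 1.41e-04.

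Among the noncoding RNAs, *1700025F24Rik* (chromosome 10, 119413444 to 119426864) had polyA CPM of 2.07, 2.59 and 3.08 in WT, 0, 0.0170 and 0 in sg5 and 0, 0.0309 and 0.0170 in sg6 and rRNA-depleted counts of 42, 21 and 36 in WT and 0 in each of the 6 KO libraries. *1700025F24Rik* was lower than WT by at least 29.3-fold in sg5 and by at least 30.5-fold in sg6, with edgeR quasi-likelihood adjusted *p* = 0.00259 and 0.00268. *C130071C03Rik*, the host transcript of *Mir9-2* (chromosome 13, 83721381 to 83741308), had polyA CPM of 1.02, 1.05 and 1.20 in WT, 0.0124, 0.00425 and 0.0123 in sg5 and 0 in each sg6 library and rRNA-depleted counts of 32, 48 and 61 in WT, 0 in each sg5 library and 0, 1 and 0 in sg6. A single rRNA-depleted read remained in sg6. *C130071C03Rik* was lower than WT by at least 41.7-fold in sg5 and by 131-fold in sg6 (interval 23.0 to 5191), with edgeR quasi-likelihood adjusted *p* = 1.92e-04 and 2.65e-04. *Ptprtos*, antisense to the phosphatase gene *Ptprt* (chromosome 2, 162390813 to 162393946), had polyA CPM of 0.726, 1.41 and 1.63 in WT, 0, 0.0127 and 0.00613 in sg5 and 0.0139, 0 and 0 in sg6 and rRNA-depleted counts of 14, 23 and 36 in WT and 0 in each of the 6 KO libraries. *Ptprtos* was lower than WT by at least 21.6-fold in sg5 and by at least 22.5-fold in sg6, with edgeR quasi-likelihood adjusted *p* = 0.00698 and 0.00762. *Gm38403* (chromosome 10, 118920381 to 118927143) had polyA CPM of 0.799, 0.867 and 0.553 in WT, 0.0373, 0.0595 and 0.0306 in sg5 and 0, 0.0927 and 0.0339 in sg6 and rRNA-depleted counts of 14, 13 and 25 in WT, 0 in each sg5 library and 0, 3 and 0 in sg6. All its rRNA-depleted KO reads came from sg6 replicate 2, and *Gm38403* passed the threshold in sg5 but not in sg6 (edgeR quasi-likelihood adjusted *p* = 0.0237 and 0.0998). *A330076H08Rik* and *9930014A18Rik* also fell in both clones, with adjusted *p* of 0.00596 and 0.00264 and of 0.00228 and 0.00172 in edgeR's quasi-likelihood test. *9930014A18Rik* retained more KO reads than most members, with counts of 47, 68 and 97 in WT, 9, 1 and 0 in sg5 and 1, 3 and 4 in sg6.

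The 12 untested members had low WT counts in rRNA-depleted RNA, and most had no more than a few KO reads. *Tert* counts were 2, 7 and 16 in WT, 0, 4 and 0 in sg5 and 0 in each sg6 library, and sg5 replicate 2, which held all its KO reads, lay above the lowest WT library in CPM. PolyA CPM of *Tert* was 0.690, 0.805 and 0.841 in WT, 0, 0 and 0.0123 in sg5 and 0.0417, 0.0309 and 0 in sg6. *P2ry1*, a receptor for ADP, had rRNA-depleted counts of 7, 15 and 32 in WT, 2, 0 and 0 in sg5 and 0 in each sg6 library. *Wdfy4*, needed for cross-presentation in dendritic cells, had 8, 11 and 21 in WT, 1, 0 and 0 in sg5 and 0 in each sg6 library. *Spef2* had 10, 2 and 13 in WT and 0 in each of the 6 KO libraries, and *Hs3st1*, a heparan sulphate sulfotransferase, had 8, 3 and 7 in WT and 0 in each of the 6 KO libraries. These WT and KO libraries did not overlap. *Mboat2*, a lysophospholipid acyltransferase, had 9, 8 and 11 in WT, 2, 0 and 1 in sg5 and 1, 2 and 0 in sg6, which leaves a ratio of 8.28 in sg5 (interval 2.56 to 42.6) and 8.64 in sg6 (interval 2.67 to 44.4). *5031410I06Rik* had 2, 6 and 9 in WT, 1, 0 and 0 in sg5 and 0 in each sg6 library, *1700091H14Rik* had 1, 0 and 2 in WT and 0 in each of the 6 KO libraries, and *Gm8765* had none in any of the 9 libraries. The 5 members without a clean separation in this file were therefore *Clvs1*, *Tert*, *Hoxb5*, *1700091H14Rik* and *Gm8765*. When the filter was dropped, *P2ry1*, *Sdk2* and *Wdfy4* fell in both clones and *Hoxb6* fell in sg5.

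The clones were also compared with each other. No tested member differed between sg5 and sg6 in edgeR's quasi-likelihood test or in DESeq2. The rule took genes near 0 in the polyA RNA of both clones, which largely fixed this outcome. The outcome therefore cannot be set beside the 1.48% of all genes tested that differed in edgeR. *Cpa6* and *Meox2* were the members with an unadjusted *p* below 0.05 in edgeR's quasi-likelihood test, 2 in all. In rRNA-depleted RNA *Cpa6* had 6 reads in sg5 and none in sg6 (adjusted *p* = 0.459 in edgeR). There *Meox2* had none in sg5 and 4 in sg6 (adjusted *p* = 0.584 in edgeR). Rather few tested members, 10, had rRNA-depleted reads in both clones. For these the difference of sg5 minus sg6 on the log2 scale ran from −1.67 to 0.35, with SE from 0.17 to 1.53. The interval of the difference, taken from its SE as a normal 95% interval, was −1.42 to 0.82 for *A530032D15Rik*, −1.53 to 1.57 for *Aldh1l1* and −2.97 to 3.05 for *Rassf9*, so differences of several-fold between the clones were not detectable for most members. *Galnt5*, *Gm38403* and *Hoxb3* passed in sg5 only, and for none of these did the difference between the clones pass.

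The chromosomal surroundings were examined next, to ask whether members lie in larger regions of lower RNA. Besides the *Hoxb* genes, member pairs within 1 Mb were *Rassf9* and *Slc6a15*, 818 kb apart on chromosome 10, and *Gm38403* and *1700025F24Rik*, 486 kb apart on the same chromosome. Between *Rassf9* and *Slc6a15* lie *Alx1*, at 0 in all 18 libraries, and *Lrriq1*, with at most 0.0301 CPM. Between *Gm38403* and *1700025F24Rik* lie 3 genes. *Cand1*, a regulator of cullin ubiquitin ligases, had 167 to 234 polyA CPM over the 9 libraries. Its log2 fold changes in rRNA-depleted RNA were −0.07 (SE 0.14) and −0.13 (SE 0.14) (edgeR quasi-likelihood adjusted *p* = 0.860 and 0.804). *4930477N07Rik* had rRNA-depleted counts of 3, 1 and 8 in WT and 0 in each KO library, too few for a test. *1700064J06Rik* had at most 0.0339 polyA CPM and no rRNA-depleted read. The nearest gene on each side that was not a member gave 83 genes, of which 32 were on in WT polyA RNA and 30 of those in all 9 libraries. Of 30 neighbours tested, 6 fell in both clones (20%, against 2.62% of all genes tested) and 2 rose in both (against 1.35%). The 6 include *Lratd2*, whose exons overlap those of a member. They also include *Gm904*, whose upstream window is 83.5% identical to that of the member *Gm8765*. Such neighbours are not independent of the members. The median log2 fold change of the tested neighbours was −0.03 in sg5 and −0.16 in sg6. Within 20 kb and beyond, 2 of 7 and 4 of 23 tested neighbours fell in both clones.

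*Mx1*, an interferon-induced antiviral GTPase 4.10 kb from *Bace2*, had 1.47 ± 0.503 CPM in the WT line, 0.0613 ± 0.0563 in sg5 and 0.0136 ± 0.0236 in sg6, with log2 fold changes of −4.27 ± 0.65 and −6.28 ± 0.81 (SE) and edgeR quasi-likelihood adjusted *p* = 0.00168 and 4.97e-04. *Lratd2*, whose exons overlap *9930014A18Rik* on the opposite strand, had 8.15 ± 0.280 CPM in the WT line, 0.439 ± 0.490 in sg5 and 0.309 ± 0.0637 in sg6, with log2 fold changes of −4.06 ± 0.53 and −4.59 ± 0.55 (SE) and edgeR quasi-likelihood adjusted *p* = 5.00e-04 and 2.84e-04. As the strand setting is not given, the reads of this pair cannot be told apart where they overlap. *Agmo*, an alkylglycerol monooxygenase 62.1 kb from *Meox2*, had 20.3 ± 6.58 CPM in the WT line, 3.56 ± 1.94 in sg5 and 1.58 ± 1.65 in sg6, with log2 fold changes of −2.40 ± 0.55 and −3.59 ± 0.59 (SE) and edgeR quasi-likelihood adjusted *p* = 0.0249 and 0.00316. *Phf19*, a Polycomb-associated protein 27.4 kb from *Traf1*, had 25.0 ± 3.01 CPM in the WT line, 6.56 ± 3.0 in sg5 and 8.55 ± 2.97 in sg6, with log2 fold changes of −1.81 ± 0.34 and −1.43 ± 0.34 (SE) and edgeR quasi-likelihood adjusted *p* = 0.00774 and 0.0334. In polyA RNA the mean levels in WT, sg5 and sg6 were 17.97, 1.03 and 0.352 CPM for *Lratd2*, 18.9, 2.22 and 0.987 for *Agmo*, 3.28, 1.18 and 1.16 for *Mx1* and 26.5, 15.4 and 9.92 for *Phf19*. All 4 were lower in the clones than in WT there as well, with *Lratd2* and *Agmo* lowest relative to WT. *Gm7609*, 89.3 kb from *A530032D15Rik*, had 6.61 ± 2.24 CPM in the WT line, 0.107 ± 0.00631 in sg5 and 0 in each sg6 library, with edgeR quasi-likelihood adjusted *p* = 2.62e-05 and 8.19e-06. These values are from rRNA-depleted RNA, and in polyA RNA *Gm7609* was lower in the clones without being silent. It was on in all 9 polyA libraries, where its mean level dropped from 23.4 CPM (WT) to 3.36 (sg5) and 1.57 (sg6). *Gm904*, 52.4 kb from *Gm8765*, had 1.59 ± 0.847 CPM in the WT line, 0 in each sg5 library and 0.0274 ± 0.0238 in sg6, with edgeR quasi-likelihood adjusted *p* = 9.99e-04 and 0.00205. In the opposite direction, *Prex2*, a Rac exchange factor 273 kb from *Cpa6*, had 19.4 ± 2.38 CPM in the WT line, 49.9 ± 9.96 in sg5 and 49.3 ± 9.17 in sg6, with log2 fold changes of 1.48 ± 0.19 and 1.45 ± 0.19 (SE) and edgeR quasi-likelihood adjusted *p* = 5.14e-04 and 6.52e-04. *Grip1*, a scaffold protein 26.4 kb from *1700025F24Rik*, had 3.30 ± 0.175 CPM in the WT line, 12.2 ± 2.21 in sg5 and 13.0 ± 6.23 in sg6, with log2 fold changes of 2.01 ± 0.30 and 2.07 ± 0.30 (SE) and edgeR quasi-likelihood adjusted *p* = 0.00163 and 0.00136.

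The other 5 tested neighbours within 20 kb did not pass the threshold. *Clptm1l*, 6.27 kb from *Tert*, had 117 ± 5.17 CPM in the WT line, 121 ± 6.85 in sg5 and 149 ± 13.2 in sg6. *Slc41a3*, 5.56 kb from *Aldh1l1*, had 5.03 ± 0.594 CPM in the WT line, 3.68 ± 0.412 in sg5 and 4.31 ± 0.661 in sg6. The rest were *Kidins220* at 10.5 kb from *Mboat2*, *E130311K13Rik* at 15.2 kb from *Plch1* and *Asph* beside *Clvs1*, with log2 fold changes between −0.21 and 0.48. *Chd7* near *Clvs1*, *Pde4b* near *Sgip1* and *Arhgap22* near *Wdfy4* fell in sg5 and did not pass in sg6, and their differences between the clones did not pass either.

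**Figure D5:**
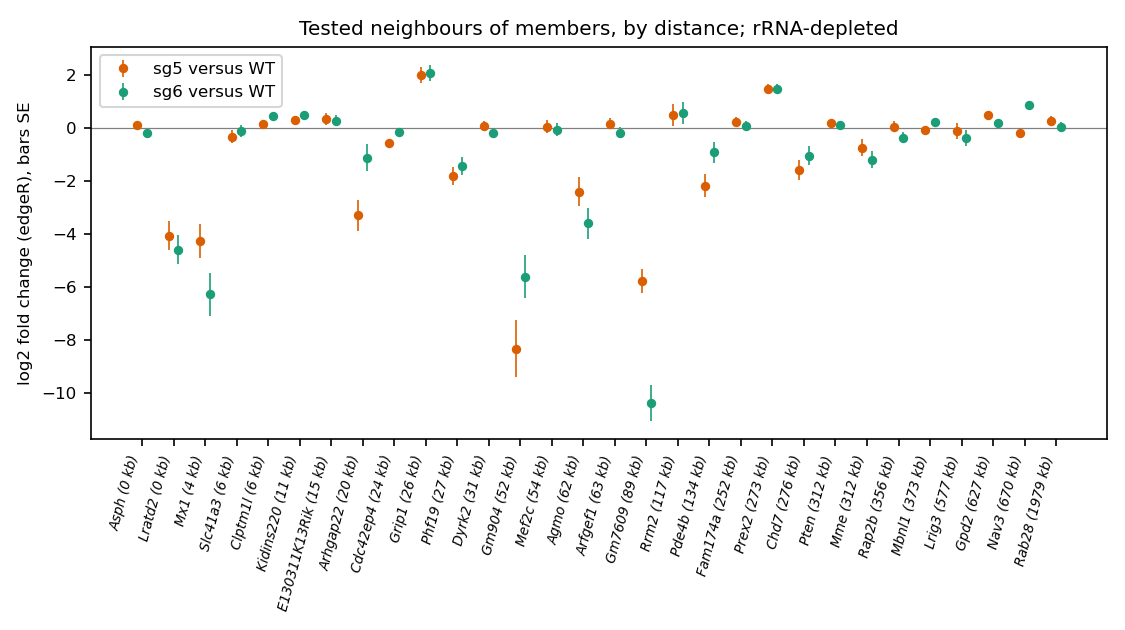
Fitted log2 fold change against WT in sg5 and sg6 for the 30 tested neighbours, ordered by distance from the nearest member (given in kb on the axis); bars are standard errors. Of these, 6 lie below 0 by more than 1 in both clones with an adjusted *p* below 0.05, *Grip1* and *Prex2* lie above, and the rest of the genes within 20 kb lie near 0 apart from *Mx1* and *Lratd2*.

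Those family relatives of the members that could be tested were lower in both clones at about the share of all genes. For 20 families named by the members' symbols, 187 relatives were listed, 76 of them on in WT, and 79 could be tested. Such a family is the autosomal genes with the same letters before the first digit of the symbol. Families of a single gene or of very many genes were left out, such as that of *Slc6a15* and *Slc16a7*. Its genes, here called relatives, share a name and need not be related in sequence or function. Of these, 2 fell in both clones (2.53%, against 2.62% of all genes tested), 6 fell in sg5 and 3 in sg6. The relatives that fell in both were *Aldh1a7*, an aldehyde dehydrogenase related to *Aldh1l1*, with 5.54 ± 0.748 CPM in the WT line, 0.393 ± 0.234 in sg5 and 0.547 ± 0.306 in sg6, and *Syt8*, a relative of *Syt1*, with 5.82 ± 1.06, 1.49 ± 0.591 and 1.95 ± 0.112. *Aldh1a7* had log2 fold changes of −3.67 (SE 0.46) and −3.20 (SE 0.44) and *Syt8* of −1.84 (SE 0.32) and −1.46 (SE 0.31), with edgeR quasi-likelihood adjusted *p* of 3.46e-04 and 8.05e-04 and of 0.00441 and 0.0201. None of the 9 tested genes named like *Traf1* or the 20 named like *Cox7b2* passed in either direction. These include genes such as *Traf3ip1* and *Cox10*, which were taken in by name alone. The 42 beta-defensins and 19 NLRP genes beside *Defb41* and *Nlrp4e* had no tested gene. Neither had the 8 relatives of the 3 *Hoxb* members, nor those of *Clvs1*, *Plch1* and *Sdk2*. The share above therefore does not cover *Hoxb*, the only family with several members. *Hoxc6*, which just missed the KO limit, has other letters and was not counted as a relative.

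Some members with code names have near-identical copies. Words of 31 bases from the members' transcripts were searched in all other GENCODE transcripts, and 34 of 42 members shared less than 5% of them. The search did not cover exons that overlap on opposite strands. Exons of 13 members overlap those of another gene, among them 10 of these 34 on the opposite strand, including *Clvs1*, *Hoxb5*, *Hoxb3*, *Galnt5*, *Mboat2* and *9930014A18Rik*, and without a stated strand setting such reads cannot be told apart. The 5 members above 20% were *5031410I06Rik* (99.0%), *Gm8765* (94.1%), *1700091H14Rik* (90.4%), *Nlrp4e* (52.8%) and *A530032D15Rik* (52.1%), whose counts are uncertain because reads can be split among copies. Some upstream windows resembled those of neighbours. Over 406 pairs of member windows the median identity in a global alignment was 48.8%, and the highest were 68.2% between *Gm8765* and *4931408C20Rik*, which lie on chromosomes 13 and 1, and 59.2% between *5031410I06Rik* and *1700091H14Rik*, on chromosomes 5 and 14. Over 45 pairs of a member and its neighbour the median was 49.1%, and the highest were *Gm8765* with *Gm904* (83.5%), *4931408C20Rik* with *Gm597* (81.9%), *5031410I06Rik* with *Gm10471* (81.5%) and *1700091H14Rik* with *Gm17026* (80.7%). The windows of *Gm8765*, its neighbour *Gm904* and *4931408C20Rik* are given first, and those of the other like pair after them, 5′ to 3′ with CG in capitals. For *Gm8765* and *5031410I06Rik* the first listed start lies 68 and 32 bases inside the span of the gene.

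Gm8765 (chr13:50698079-50698328, plus strand): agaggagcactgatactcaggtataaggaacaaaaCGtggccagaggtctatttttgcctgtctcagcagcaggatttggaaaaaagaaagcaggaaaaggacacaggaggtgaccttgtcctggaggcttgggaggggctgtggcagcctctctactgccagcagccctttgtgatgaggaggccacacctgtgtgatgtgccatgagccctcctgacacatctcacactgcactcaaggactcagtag

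Gm904 (chr13:50642978-50643227, plus strand): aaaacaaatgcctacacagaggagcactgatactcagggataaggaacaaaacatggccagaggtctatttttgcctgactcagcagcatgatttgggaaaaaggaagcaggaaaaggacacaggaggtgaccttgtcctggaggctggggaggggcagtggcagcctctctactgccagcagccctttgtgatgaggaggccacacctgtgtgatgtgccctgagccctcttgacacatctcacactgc

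4931408C20Rik (chr1:26687461-26687710, minus strand): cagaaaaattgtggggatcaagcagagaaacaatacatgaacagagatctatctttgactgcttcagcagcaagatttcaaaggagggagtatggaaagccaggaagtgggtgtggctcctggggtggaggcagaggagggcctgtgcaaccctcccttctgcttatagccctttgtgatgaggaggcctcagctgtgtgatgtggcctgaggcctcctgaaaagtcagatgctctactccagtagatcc

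5031410I06Rik (chr5:26105315-26105564, minus strand): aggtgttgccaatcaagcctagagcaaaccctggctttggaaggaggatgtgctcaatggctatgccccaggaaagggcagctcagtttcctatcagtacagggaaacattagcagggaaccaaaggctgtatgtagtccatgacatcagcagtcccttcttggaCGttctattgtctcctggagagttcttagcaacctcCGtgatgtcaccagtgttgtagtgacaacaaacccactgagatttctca

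1700091H14Rik (chr14:42095278-42095527, minus strand): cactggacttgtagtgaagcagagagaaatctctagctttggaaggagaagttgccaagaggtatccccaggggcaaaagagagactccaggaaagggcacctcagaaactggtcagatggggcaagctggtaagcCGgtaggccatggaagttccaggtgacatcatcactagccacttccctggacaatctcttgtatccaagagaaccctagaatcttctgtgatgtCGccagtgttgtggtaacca

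*Gm8765* had 1 CG in this window, *Gm904* and *4931408C20Rik* had 0, and *5031410I06Rik* and *1700091H14Rik* had 2 each. *4931408C20Rik* (chromosome 1, 26681801 to 26687460) had polyA CPM of 1.63, 2.02 and 0.913 in WT, 0.00621, 0.00425 and 0 in sg5 and 0.0139, 0 and 0 in sg6 and rRNA-depleted counts of 20, 33 and 66 in WT, 0, 1 and 0 in sg5 and 0 in each sg6 library. *4931408C20Rik* was lower than WT by 106-fold in sg5 (interval 18.6 to 4207) and by at least 36.7-fold in sg6, with edgeR quasi-likelihood adjusted *p* = 0.00129 and 7.64e-04. *Gm8765* (chromosome 13, 50698261 to 50703409) had polyA CPM of 2.69, 3.86 and 4.11 in WT, 0.0435, 0.0382 and 0.0245 in sg5 and 0, 0.0618 and 0.0170 in sg6 and no rRNA-depleted read in any line. Its near-identical copy *Gm906* had 0.254 to 0.706 polyA CPM in WT and 0 in all KO libraries, and likewise no rRNA-depleted read. *Gm904* averaged 0.754 polyA CPM in the WT line, 0.00142 in sg5 and 0.00464 in sg6, and missed the WT limit in at least 1 library. *Gm597*, the neighbour 2089 kb from *4931408C20Rik* with a window like its own, was nearly at 0 in all lines, with 0.00801 polyA CPM in WT. *Gm17026* averaged 0.621 polyA CPM in the WT line, 0.0401 in sg5 and 0.0371 in sg6, and *Gm10471* 0.126, 0.0911 and 0.0273. For *A530032D15Rik*, the sharing genes *Sp140*, a nuclear body protein of immune cells, and *C130026I21Rik* had 25.2 to 61.8 and 5.37 to 14.5 polyA CPM in WT. In the KO libraries *Sp140* had 4.10 to 9.43 and *C130026I21Rik* 0 to 0.385 polyA CPM.

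Gene lists written for related subjects contained no member, but only genes that were on in WT could be members. Of the lists, 4 germline, 21 imprinted, 21 interferon and 361 zinc finger genes were on. Members made up 0.331% of the autosomal genes that were on in WT. In lists of this size few or none would be found at that share, so their absence is no result about the lists. Of 5 tested germline genes, 0 passed in edgeR's quasi-likelihood test in both clones in either direction, and likewise 0 in DESeq2, with 1 in sg5 and 1 in sg6 at an unadjusted *p* below 0.05 in edgeR. The germline list held 18 genes and none of *Nlrp4e*, *Cox7b2*, *Spef2* and *Defb41*. These members are described above as genes of the oocyte, testis, sperm or male reproductive tract, so the list does not cover such genes in full. Over all genes tested, 2.62% were lower and 1.35% higher in both clones, with median log2 fold changes of 0.08 in sg5 and 0.04 in sg6. Of 16 tested imprinted genes, 3 fell in both clones (18.8%; *Peg3*, *Plagl1* and *Sfmbt2*) and 2 rose (*Peg10* and *Sgce*), and the list medians were 0.15 and −0.10. Among 20 tested interferon-response genes, 7 fell in both (35%; *Isg15*, *Ifit1*, *Mx1*, *Oas1a*, *Oas2*, *Ifi44* and *Gbp2*), with median log2 fold changes of −1.24 and −2.23. Of 357 tested zinc finger genes, 2 fell in both (0.56%; *Zfp618* and *Zfp985*) and 2 rose (*Zfp764* and *Zfp647*), and the list medians were 0.07 and −0.04. No list was tested against other genes. *Mx1*, the neighbour of *Bace2*, is on the interferon list.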

How the data were processed

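PolyA-selected RNA was quantified by the authors with Salmon (0.8.1 in the study's methods, 0.8.2 in the submitters' processing notes) and tximport 1.8.0, and the deposited values were expected counts per gene as whole numbers. For rRNA-depleted RNA the authors deposited read counts per gene and transposable element locus from STAR (2.27.10a in those notes, up to 100 alignments per read) and TElocal 1.1.1 on mm10. Strand settings are not given in the sources used here. Reads with several alignments are shared among loci, which affects near-identical genes.

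The members were taken from polyA CPM by the stated rule, so no test was run on polyA values. The rRNA-depleted counts were fitted with edgeR 4.0.16 (quasi-likelihood test, TMM, filterByExpr with a minimum count of 10, 9 libraries in 3 lines, R 4.3.3), with Benjamini-Hochberg adjustment over all 56086 genes and loci tested, and the scripts were tested on simulated data. DESeq2 1.42.0, another scaling, other filters and fits without single libraries were alternatives. No 2 libraries of a line held identical values.

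The members and the gene lists were chosen with earlier results of these data known. All members are named. Values per library are given for the 8 with the highest WT polyA level, for those with another member within 1 Mb, and for 12 more that fell in both clones by size of change. A few members outside these groups were given values after they had been seen. Sequences are from RefSeq GRCm38.p6, and transcripts from GENCODE.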

Additional observations from a re-analysis of the deposited data

Results flagged for a closer look

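Of the members, their neighbours and their family relatives, 2 genes differed between the clones in edgeR's quasi-likelihood test, and neither was a member. *Mboat1*, a relative of *Mboat2*, had 17.6 ± 4.22 CPM in the WT line, 4.25 ± 1.64 in sg5 and 14.5 ± 4.39 in sg6 in the rRNA-depleted libraries (mean ± SD of 3 libraries). The difference of sg5 minus sg6 was −1.76 on the log2 scale (SE 0.32, edgeR quasi-likelihood adjusted *p* = 0.0248). *Nav3*, a neighbour of *Syt1* at 670.3 kb, differed by −1.05 (SE 0.16, edgeR quasi-likelihood adjusted *p* = 0.00577). Against WT its log2 fold change was −0.18 (SE 0.15) in sg5 and 0.87 (SE 0.16) in sg6, with edgeR quasi-likelihood adjusted *p* = 0.613 and 0.00587. Both stayed within 1 and so were not called, although the rise in sg6 had a low adjusted *p*.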

How the results depend on the processing

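The alternative fits gave 958 fold changes of tested members against WT, 540 of them from fits that left out a single library. These values share libraries and fits and are not independent. Of them, 885 kept their direction and their side of the threshold, 60 lost the call, 13 gained it and 0 turned direction. Members lower in both clones numbered 29 in DESeq2, 26 with median-of-ratios scaling, 32 of 41 without the filter, 29 with genes alone, 23 with stricter thresholds and 18 to 26 when single libraries were left out. Without WT replicates 1, 2 and 3 in turn they numbered 22, 20 and 18, and 17 of the 26 fell in both clones in all 9 such fits. Members lower in sg5 numbered 18 to 28 over these fits. *Galnt5*, *Gm38403* and *Hoxb3* passed in both clones in DESeq2, with genes alone and without the filter.

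The number of members depended on the limits: it was 24 with a WT limit of 1 CPM, 75 with a KO limit of 0.2 CPM, 24 with a KO limit of 0.05 CPM, 39 after TMM scaling, 38 (33 of them shared) after thinning to the smallest polyA library, and 42 to 58 when single libraries were left out, with 58 without WT replicate 1. The sg5 libraries were the deepest, so 0.1 CPM stood for 16.1 to 23.5 counts there and for 5.89 to 7.19 in sg6.

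Family relatives lower in both clones numbered 1 with stricter thresholds and 1 to 3 without single libraries. Zinc finger genes numbered 1 without the filter, 0 with stricter thresholds and 0 to 2 without single libraries, and interferon genes 4 to 11, with 4 without WT replicate 1 and 11 without sg5 replicate 1. The cause of these changes was not tested.

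The labels do not say that a library number marks a shared batch. Same-numbered libraries of different lines correlated at a mean of 0.29 (−0.23 to 0.64) in their deviations, above 0.1 in 8 of 9 pairs, and differently numbered ones at −0.15. A library correlated best with its own number in 12 of 18 comparisons with another line. This is a hint of pairing in the data, and as 1 pair fell short the fit without the block was kept. With the replicate number as a block, 26 members were lower in both clones and 28 in sg5. In rRNA-depleted RNA 12 members had too few reads for a test, among them *Gm8765* with 0 and *1700091H14Rik*, both near-identical to copies, and the part of depth and of copies in this was not tested.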
